A study of Mus musculus with 6 samples.

Results

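The comparison examined here set the 2 ATAC-seq libraries of GL261 cells kept at <0.1% O2 for 16 h against the 2 libraries of GL261 cells at 21% O2, so that 4 of the 6 libraries of the series were used. GL261 is a mouse glioma cell line, here a single line stably expressing the pEGFP-N1 plasmid, and all groups shared that background. The severely hypoxic cells were fixed with formaldehyde while still in hypoxia, and the series also holds 2 libraries at 1% O2, which entered only the common set of peaks. The labels number the replicates but do not state that they were separate cultures, so that p-values measure only the spread between these libraries, which may be technical. The libraries were chosen by their labels, with no measured value in the rule.

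ATAC-seq uses a transposase that cuts and tags DNA where nucleosomes and other proteins leave it open, so that fragments pile up over active promoters and enhancers. In hypoxia the prolyl hydroxylases that mark HIF-1α and HIF-2α for degradation lose their substrate, oxygen, and HIF then binds short ACGTG or GCGTG letters, called hypoxia response elements, near genes of glycolysis, angiogenesis and pH control. At <0.1% O2, further systems that are not driven by HIF are known to respond, among them the unfolded protein response, a slowing of DNA replication and impaired activity of oxygen-dependent histone demethylases. The question asked here was which promoters and distal elements gained or lost accessibility across all genes at this oxygen level.

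Each library was deposited as its own list of peaks, with 33006 and 36188 peaks at 21% O2 and 43554 and 39348 peaks at <0.1% O2. The fragments covered the genome to an average depth of 2.16 and 2.36 at 21% O2 and of 3.35 and 3.18 at <0.1% O2, so that the hypoxic libraries were the deeper ones and read more precisely. Stretches found in both replicates of any condition gave 41308 consensus peaks, of which 28922 were present in all 4 libraries and could be compared in height: 13029 promoter peaks, within 2000 bp of an annotated start site, and 15893 other peaks. Height was the summit pileup, the number of fragments over the highest point of the peak, which was recovered as a whole number for 100% of peaks, and is given below as a scaled pileup after each library was centred on its median peak. A peak was called lower or higher where limma gave an adjusted p below 0.05 and the log2 change was at least 0.6. Promoter peaks of glial and glioma marker genes were present in all 4 libraries for 11 of 16 genes, among them Sox2, Nes, Vim and Pdgfra, while Sox9, Egfr and Nfia had none. None of 7 T and B cell markers had such a peak. Of 10 microglia and macrophage markers, *Tmem119* and *Csf1r* had one and 8 had none, among them Ptprc, Cx3cr1 and Itgam. The sum of these 2 was 112 in both libraries at 21% O2 and 110 and 99.8 at <0.1% O2, and neither was called. The summed scaled pileup of the glial list was 1952 and 2087 at 21% O2 and 1614 and 1559 at <0.1% O2, with the promoters of *Olig2* and *Gfap* called lower. The endothelial sum, which rested on *Flt1*, was 81.8 and 86.1 against 51.5 and 39.3, and the oligodendrocyte sum, which rested on *Mbp* and *Cnp*, was 465 and 467 against 317 and 268. Of the neuronal markers 4 of 7 had a peak, with *Syt1* and *Map2* lower and *Slc17a7* higher and sums of 454 and 441 against 392 and 403. *Krt8* was the single epithelial marker of 6 and *Apoa1* the single liver marker of 4 with a peak, and neither was called. The part of these markers in the results was not tested.

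The windows below are examples that hold, in capitals, the AP-1, ETS or hypoxia response letters read in rising and falling peaks. Among 12 short motifs searched, AP-1 letters had the widest gap in share between rising and falling peaks outside promoters, and ETS letters had the highest ratio of falling to rising promoters. The AP-1 letters (TGAGTCA or its reverse complement TGACTCA) are the site of FOS and JUN dimers, and are shown for 2 of the 5 distal peaks with the largest rise, upstream of *U90926* at chr5:92220444-92220525 and of *Map10* at chr8:125639834-125639920 (GRCm38, plus strand, as for each window).

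U90926: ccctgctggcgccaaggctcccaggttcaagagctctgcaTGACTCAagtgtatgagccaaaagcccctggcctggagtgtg
Map10: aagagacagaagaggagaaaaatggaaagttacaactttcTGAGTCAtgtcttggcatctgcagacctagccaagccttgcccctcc

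The ETS letters (CCGGAAG or CTTCCGG), read by a family of factors that includes GABP, are shown for 3 promoters that fell. *Atp5e*, at chr2:174464157-174464243, encodes the epsilon subunit of ATP synthase. *Mrps35*, at chr6:147042697-147042783, encodes a protein of the mitochondrial ribosome. *Kars*, at chr8:112011314-112011400, encodes lysyl-tRNA synthetase.

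Atp5e: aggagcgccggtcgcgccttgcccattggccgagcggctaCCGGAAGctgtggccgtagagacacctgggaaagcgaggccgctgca
Mrps35: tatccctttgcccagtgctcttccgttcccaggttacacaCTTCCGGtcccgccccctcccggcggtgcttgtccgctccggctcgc
Kars: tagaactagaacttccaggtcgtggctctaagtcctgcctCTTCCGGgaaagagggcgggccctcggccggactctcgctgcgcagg

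The hypoxia response letters (ACGTG or GCGTG, or CACGT or CACGC on the other strand) are shown for 3 promoter peaks that rose, in *Slc16a3* at chr11:120950967-120951060, *Cyp1a1* at chr9:57696519-57696671 and *Nupr1* at chr7:126625650-126625735. In the *Nupr1* window the letters form the palindrome of an E-box, so that both strands match. Hypoxia response letters were not particular to rises: they were in 54.7% of lower and 34.1% of higher promoters. Falling promoters not printed here, such as those of *Riox2* and *Eed* with 6 and 3 matches, also held them.

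Slc16a3: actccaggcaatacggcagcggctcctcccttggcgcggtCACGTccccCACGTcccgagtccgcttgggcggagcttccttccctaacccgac
Cyp1a1: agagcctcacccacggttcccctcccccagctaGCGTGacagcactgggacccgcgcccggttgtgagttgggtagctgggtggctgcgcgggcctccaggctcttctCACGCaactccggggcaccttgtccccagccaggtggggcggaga
Nupr1: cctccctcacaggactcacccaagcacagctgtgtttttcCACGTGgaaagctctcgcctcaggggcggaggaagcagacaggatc

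At <0.1% O2, promoter peaks fell and peaks outside promoters rose relative to the median peak. Of the 13029 promoter peaks, 2530 were lower (19.4%) and 592 were higher (4.54%), whereas of the 15893 other peaks 853 were lower (5.37%) and 3072 were higher (19.3%). The median log2 change was -0.19 for promoter peaks and 0.16 for other peaks. By library, with each peak taken relative to its own mean over the 4 libraries on the log2 scale, the median promoter peak stood 0.15 and 0.21 above the median other peak at 21% O2 and 0.20 and 0.16 below it at <0.1% O2. In level, promoter peaks stayed above the others in every library, with a mean percentile rank of pileup of 61.7 in both libraries at 21% O2 and of 56.4 and 56.9 at <0.1% O2. The shift between conditions, -0.35, was larger than the difference between replicates, which was 0.067 at 21% O2 and 0.043 at <0.1% O2. An exact two-sided permutation test over the 4 libraries gave p = 0.33, which is the smallest p that 2 against 2 libraries allow.

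**Figure D1:**
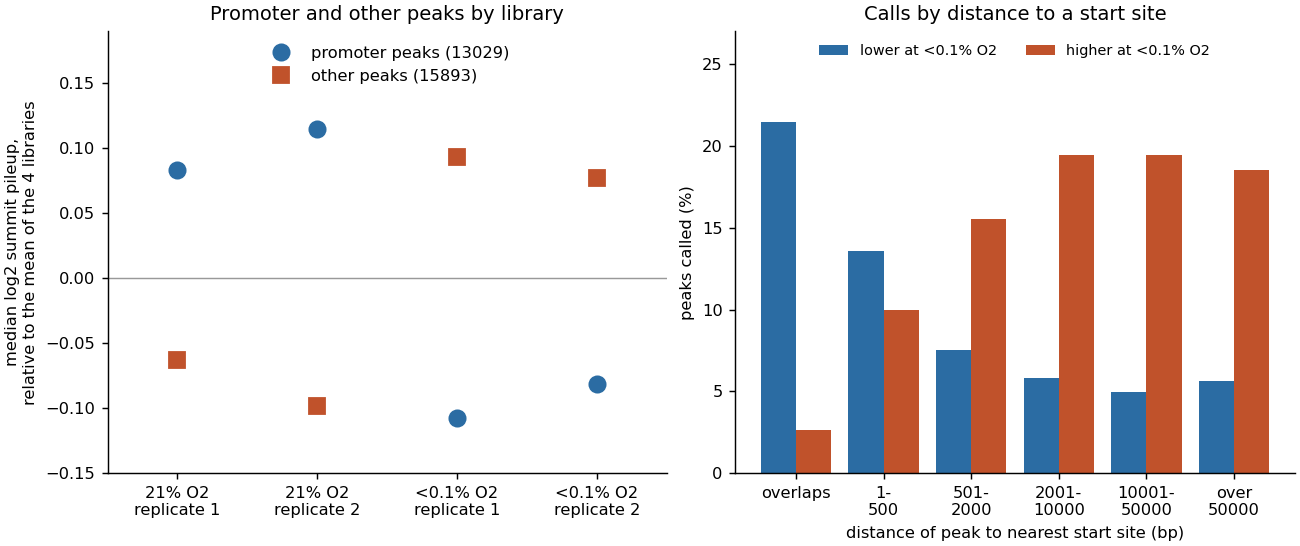
Left, the median log2 summit pileup of promoter peaks (circles) and other peaks (squares) in each of the 4 libraries, each peak relative to its own mean over the 4 libraries; right, the percentage of peaks called lower (blue) or higher (orange) at <0.1% O2 by distance in bp from the nearest start site. On this relative scale promoter peaks lie above other peaks in both libraries at 21% O2 and below them in both at <0.1% O2, and the share called lower declines from 21.5% of peaks over a start site to 5.82% at more than 2000 and up to 10000 bp.

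The size of this split depended on distance, on GC content and on the measure. Peaks that overlapped a start site were lower in 21.5% and higher in 2.65% of cases, those more than 500 and up to 2000 bp away were lower in 7.53% and higher in 15.5%, and those over 50000 bp away were lower in 5.67% and higher in 18.5%. Promoter peaks in the quintile of peaks with the highest GC content (above 61.0%) had a median log2 change of -0.31, and those in the lowest quintile (below 46.3%) one of 0.14. Other peaks ran from 0.21 in the lowest quintile to -0.11 in the highest. With the trend on GC content subtracted from each library, 1579 promoter peaks were lower and 927 higher, 1333 other peaks were lower and 2249 higher, and the difference between both classes was -0.11. With pileups divided by the genome coverage of the library in place of the median peak, which moved the median of all peaks to -0.16, 3743 promoter peaks were lower and 307 higher, and 1476 other peaks were lower and 1820 higher. The local background that the peak caller sets beside each summit, as a multiple of genome coverage, was 3.59 and 4.08 at promoter peaks at 21% O2 and 3.07 and 2.82 at <0.1% O2, and fold enrichment over that background called 346 promoter peaks lower and 117 higher.

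Percentile ranks of fold enrichment within a library gave the same direction at promoters. Ranked among the 28922 shared peaks, 3427 promoter peaks (26.3%) stood lower in both hypoxic libraries than in both normoxic ones by a mean of at least 10 points, and 1550 (11.9%) stood higher. Of the 2530 promoter peaks lower in pileup, 1745 (69.0%) were also lower by this rank rule and 31 were higher. Of the 3072 other peaks higher in pileup, 2328 (75.8%) were also higher in rank. Fold enrichment sets the same pileup against its background, so that both overlaps are partly built in. Ranked within the whole peak list of each library, which was longer in hypoxia, 2264 promoter peaks stood lower and 2184 higher.

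Among promoter peaks whose fold rank moved the same way in both hypoxic libraries, the 5 largest falls were those of *Gcn1l1*, *Gabpb1*, *Cul1* and 2 peaks shared between genes. *Gcn1l1*, which encodes the GCN1 protein that senses stalled ribosomes, had a scaled pileup of 88.2 and 71.3 at 21% O2 and of 16.1 and 17.3 at <0.1% O2, which is 4.76 times lower (log2 change -2.25 ± 0.22 SE, limma adjusted p = 1.41e-11). *Gabpb1*, the beta subunit of the ETS factor GABP, had 110 and 105 against 30.6 and 28.8 (log2 change -1.86 ± 0.18, limma adjusted p = 1.19e-11). *Cul1*, the scaffold of the SCF ubiquitin ligases, had 145 and 136 against 46.7 and 35.5 (log2 change -1.79 ± 0.16, limma adjusted p = 1.51e-12). The replicates of each condition lay close together and the conditions did not overlap in any of these. The peaks shared by *Tshz1* and *Zadh2* and by *Dpm1*, *Mocs3* and *Gm20716* had log2 changes of -1.91 and -1.77. The fold rank of the 5 fell by 20.2 to 49.1 points, a direction that the rule for naming them required.

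The 5 largest promoter rises by the same rule included a lactate transporter and a xenobiotic enzyme. *Slc16a3* encodes MCT4, which exports lactate from glycolytic cells and is a known HIF target. Its peak lay at chr11:120950660-120951196, 1579 bp from the nearest coding start site, and had a scaled pileup of 33.7 and 46.5 at 21% O2 and of 133 and 131 at <0.1% O2 (log2 change 1.74 ± 0.17, limma adjusted p = 7.85e-12). Both hypoxic libraries were far above both normoxic ones, and the fold rank moved from 20.3 and 37.2 to 90.6 and 87.9. *Cyp1a1*, an oxidase induced through the aryl hydrocarbon receptor, had 24.7 and 27.7 against 105 and 94.0 (log2 change 1.93 ± 0.19, limma adjusted p = 1.73e-11). Its window holds GCGTG letters on both strands, which are also the core of the aryl hydrocarbon receptor site. *Sgsm3* rose from 42.8 and 44.6 to 151 and 157, *Anxa8*, a membrane-binding annexin, from 28.5 and 25.7 to 96.6 and 84.4, and the peak near the olfactory receptor gene *Olfr1331* from 37.6 and 41.6 to 128 and 120. None of these 5 rising peaks overlapped a coding start site: they lay 494 to 1702 bp from it.

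**Figure D2:**
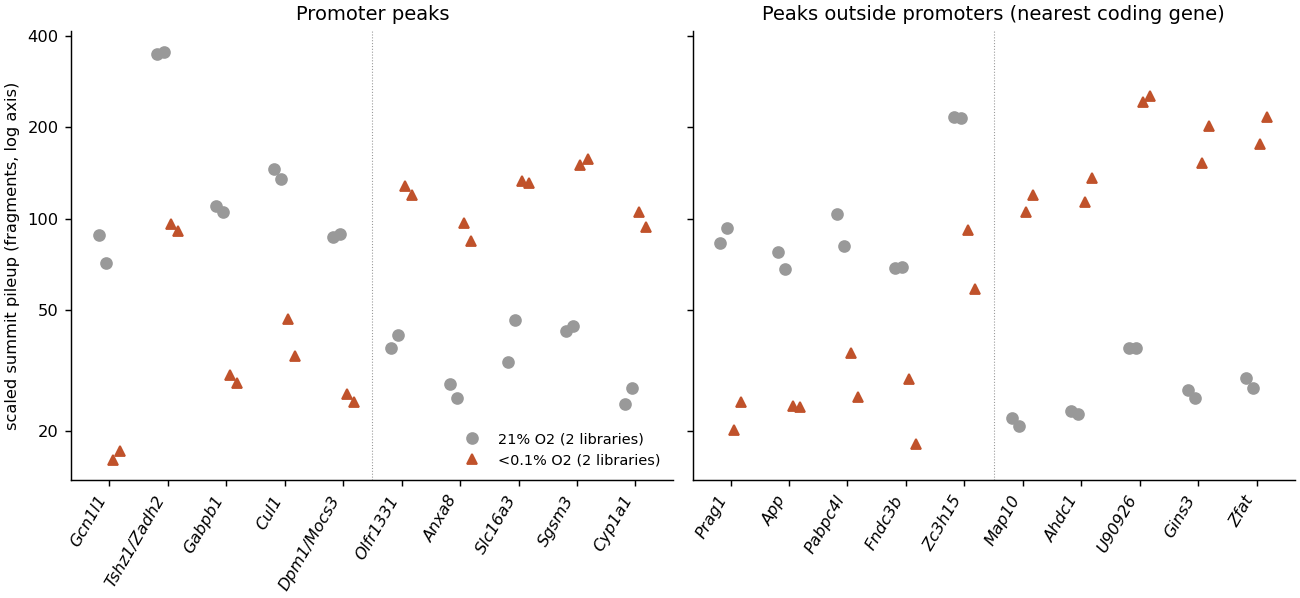
Scaled summit pileup (fragments, log axis) in each of the 2 libraries at 21% O2 (grey circles) and at <0.1% O2 (orange triangles) for the 5 largest falls and 5 largest rises, among peaks whose fold rank moved the same way, in promoter peaks (left) and among peaks outside promoters, named by the nearest coding gene (right). In each peak both hypoxic libraries lie on the same side of both normoxic ones, from *Gcn1l1* (88.2 and 71.3 against 16.1 and 17.3) to the peak nearest *Zfat* (29.8 and 27.7 against 176 and 216).

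Peaks outside promoters, named by the same rule, included larger rises. An intronic peak 149567 bp from the nearest coding start, that of the zinc finger gene *Zfat*, at chr15:68108129-68109220, had a scaled pileup of 29.8 and 27.7 at 21% O2 and of 176 and 216 at <0.1% O2, 6.78 times higher (log2 change 2.76 ± 0.16, limma adjusted p = 4.73e-19). An intronic peak nearest *Gins3*, at chr8:95606914-95607888, had 27.3 and 25.7 against 153 and 202 (log2 change 2.73 ± 0.17, limma adjusted p = 4.35e-18). The intergenic peak 4484 bp from *U90926*, at chr5:92219892-92220917, had 37.6 in both libraries at 21% O2 and 242 and 253 at <0.1% O2 (log2 change 2.72 ± 0.14, limma adjusted p = 6.35e-21). These 3 peaks were low but present in normoxia and ranked between 52.1 and 93.8 by fold in hypoxia. Peaks nearest *Ahdc1* and *Map10* rose by 2.43 and 2.39. Of these 5, the *U90926* and *Map10* peaks held an AP-1 site within 100 bp of the summit. Among the 5 largest falls, a peak 9498 bp from *Prag1* had 83.1 and 93.1 against 20.1 and 25.0 (log2 change -1.97 ± 0.21, limma adjusted p = 6.04e-11), and an intronic peak of *App*, the amyloid precursor gene, had 77.9 and 68.3 against 24.2 and 24.0. None of these 5 falls held an AP-1 site.

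AP-1 letters marked the rising peaks. Within 100 bp of the summit they were found in 24.3% of all other peaks, in 42.8% of those called higher (1314 of 3072, 95% exact binomial interval 41.0 to 44.6) and in 7.03% of those called lower (60 of 853, 5.41 to 8.96). At promoters the shares were 5.76% of all, 25.5% of higher and 1.66% of lower peaks. Seen from the motif, 34.1% of other peaks with AP-1 letters were higher and 1.56% lower, against 14.6% and 6.59% of those without. Other peaks with no AP-1 site were higher in 14.6% of cases, those with 1 site in 32.6% and those with 2 or more in 44.2%. By library, the median other peak with AP-1 letters stood at -0.18 and -0.20 at 21% O2 and at 0.20 and 0.19 at <0.1% O2, relative to the mean of the 4 libraries. Peaks without the letters stood at -0.026 and -0.064 and at 0.061 and 0.042. These intervals cover counting error only, and a match of letters is a description of the window and not evidence that a factor was bound.

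ETS letters marked falling promoters. They were found in 12.1% of all promoter peaks, in 19.3% of those lower (488 of 2530, interval 17.8 to 20.9) and in 1.86% of those higher (11 of 592, interval 0.93 to 3.30). Promoters with ETS letters had a median log2 change of -0.39 and 30.9% were lower, against -0.16 and 17.8% without. The CCAAT letters of NFY showed the reverse at falling promoters, at 30.4% of all, 19.1% of lower and 32.4% of higher peaks. YY1 letters (AAGATGGC) were in 2.88% of all promoters, 3.83% of lower and 0.84% of higher ones. NRF1 letters (GCGCATGC) were in 3.80% of all, 3.68% of lower and 1.52% of higher promoters.

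**Figure D3:**
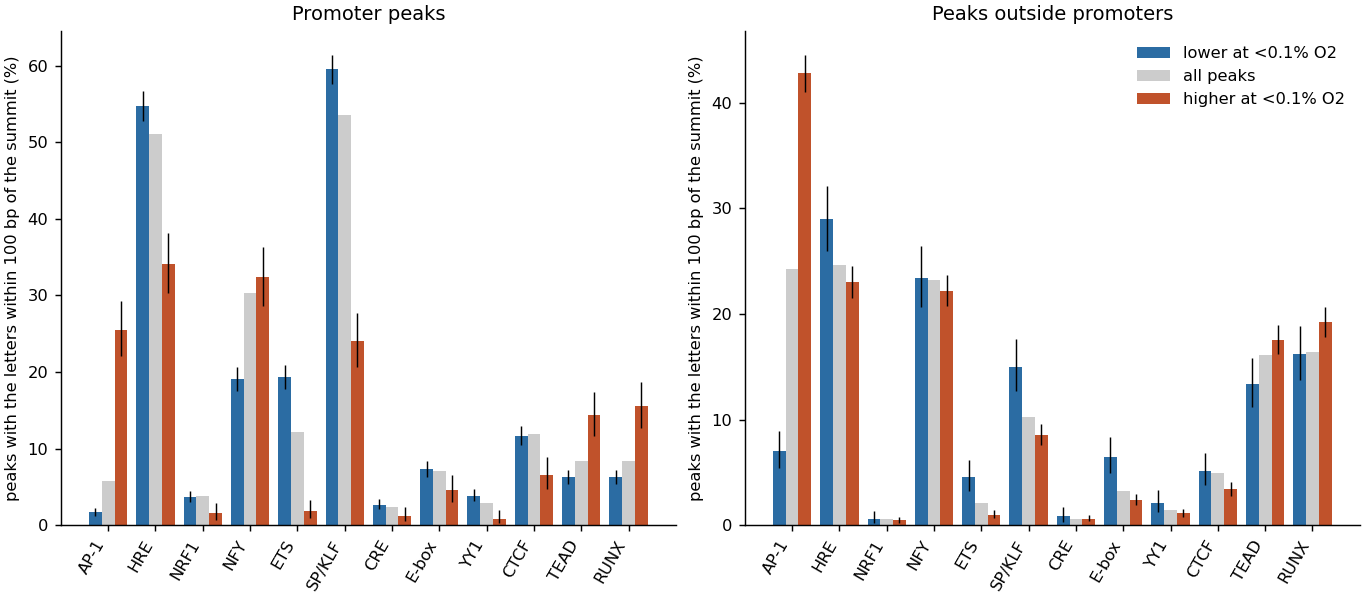
Percentage of promoter peaks (left) and of peaks outside promoters (right) that hold the letters of each of 12 motifs within 100 bp of the summit, for peaks lower at <0.1% O2 (blue), all peaks (grey) and peaks higher at <0.1% O2 (orange), with 95% exact binomial intervals. AP-1 has the widest gap outside promoters (7.03% of lower, 42.8% of higher peaks), and ETS letters are in 19.3% of lower and 1.86% of higher promoters.

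The hypoxia response letters did not follow the rising peaks as a whole. They were in 51.1% of all promoter peaks, 54.7% of lower and 34.1% of higher ones, and outside promoters in 24.7% of all, 29.0% of lower and 22.98% of higher peaks. An E-box (CACGTG) contains these letters and was in 7.05% of all, 7.27% of lower and 4.56% of higher promoters. Outside promoters, TEAD letters (GGAATG) were in 13.4% of lower and 17.5% of higher peaks and RUNX letters (TGTGGT) in 16.2% and 19.2%. The letters of SP and KLF factors (GGGCGG) were in 15.01% of lower and 8.53% of higher peaks outside promoters, and in 59.5% of lower and 24.0% of higher promoters. CTCF letters (AGGGGGC) were in 11.6% of lower and 6.59% of higher promoters, and CRE letters (TGACGTCA) in 2.69% and 1.18%.

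GC content moved with these motifs, so that AP-1 and ETS letters were also read within quintiles of GC content. Other peaks with AP-1 letters had a median log2 change of 0.46 in the lowest quintile, where those without had 0.13, and of 0.35 in the next to highest, where those without had 0.045. In the highest quintile, with 25 AP-1 peaks, the medians were 0.061 and -0.13. Promoters with ETS letters had medians of -0.31 in the middle quintile and -0.44 in the highest, against -0.038 and -0.29 without. With the GC trend subtracted, AP-1 letters were in 42.0% of higher and 8.63% of lower other peaks, and ETS letters in 3.67% of higher and 21.4% of lower promoters. SP/KLF letters were then in 50.6% of higher and 48.8% of lower promoters and in 11.5% of higher and 9.002% of lower other peaks, and CTCF letters in 12.1% of higher and 9.88% of lower promoters, so that the direction of both turned. Hypoxia response letters were then in 49.1% of higher and 49.8% of lower promoters.

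**Figure D4:**
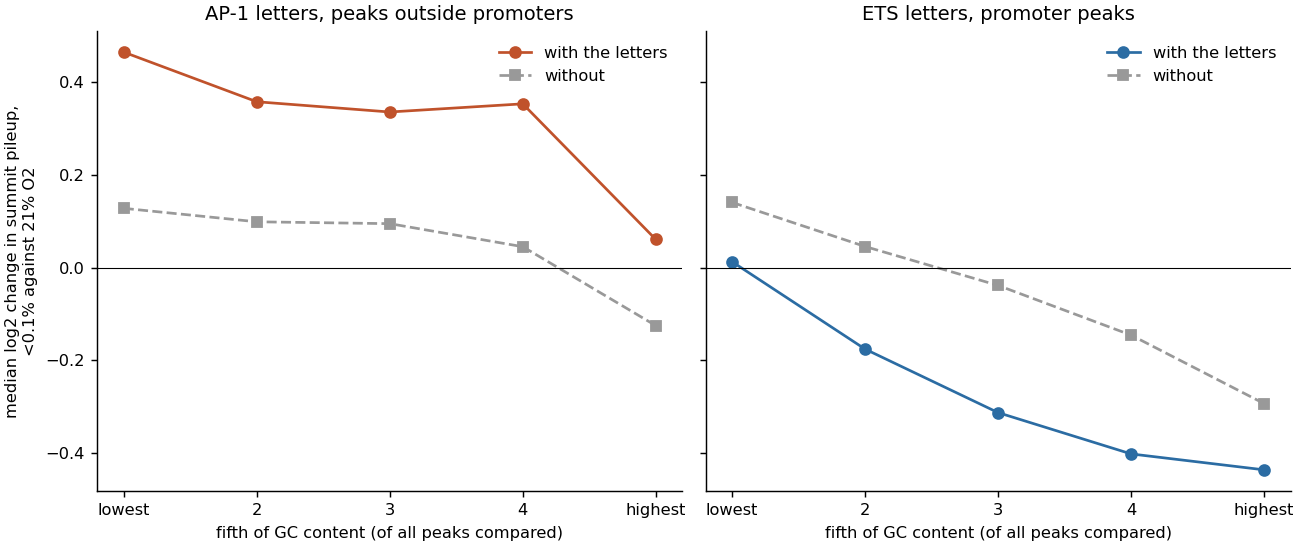
Median log2 change in summit pileup at <0.1% against 21% O2 by quintile of GC content of the peak, for other peaks with (orange) and without (grey) AP-1 letters on the left and for promoter peaks with (blue) and without (grey) ETS letters on the right. Peaks with AP-1 letters lie above those without in each quintile, 0.46 against 0.13 in the lowest, and promoters with ETS letters lie below those without, -0.44 against -0.29 in the highest.

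For 11637 protein-coding genes with a ranked promoter peak, 21.6% had a lower and 2.91% a higher promoter, with a median log2 change of -0.24. With the GC trend subtracted, 12.6% were lower and 6.28% higher, with a median of -0.069. The gene lists below are read beside these shares. The median change of some lists turned sign with the scaling: with the GC trend subtracted, the medians of glycolysis (-0.081 to 0.14), other hypoxia-inducible genes (-0.13 to 0.036), the unfolded protein response (-0.14 to 0.044), AP-1 and immediate early genes (-0.17 to 0.073), sterol synthesis (-0.010 to 0.10), oxygen-dependent demethylases (-0.21 to 0.075) and the clock (-0.13 to 0.19) became positive. With coverage scaling those of antigen presentation (0.070 to -0.096), the p53 pathway (0.029 to -0.14) and ion channels (0.0058 to -0.16) became negative. The other 17 of 27 lists kept a negative median under both.

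Cytosolic ribosomal protein genes and replication-dependent histone genes held the largest shares of lower promoters by pileup among the 27 lists. Of 78 cytosolic ribosomal protein genes, which form the ribosome, 39 had a lower promoter and none a higher, with a median of -0.60. The median scaled pileup of the list was 136 in both libraries at 21% O2 and 93.4 and 88.3 at <0.1% O2. *Rps12* had 235 and 301 against 102 in both hypoxic libraries (log2 change -1.38 ± 0.12, limma adjusted p = 4.61e-13), and *Rpsa* 90.8 and 108 against 39.5 and 36.5. Their fold enrichment did not fall: the median rank of the list was 51.0 and 51.1 at 21% O2 and 60.1 and 59.4 at <0.1% O2, and 22 members rose and 7 fell by the rank rule. The direction of this list thus differed between pileup and fold enrichment. The 60 replication-dependent histone genes, which supply histones in S phase, shared 34 peaks, of which 22 were lower and none higher, with a median over genes of -0.64. The peak shared by *Hist1h2ap*, *Hist1h2br* and *Hist1h4n* had 80.5 and 54.5 against 20.1 and 25.9, and its fold rank fell from 99.9 and 97.0 to 11.8 and 20.7. By rank, 11 of the 60 genes fell and 6 rose. Near-identical histone genes are hard to tell apart by reads, and low-quality alignments were filtered out, so that single members are uncertain.

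Other lists of translation and energy metabolism held smaller shares of lower promoters. Among 76 mitochondrial ribosomal protein genes, 26 were lower and none higher (median -0.41), and by rank 30 fell and 3 rose. *Mrps35* had 122 and 125 against 49.9 and 56.6 (log2 change -1.21 ± 0.15, limma adjusted p = 8.55e-09), and *Mrps10* 68.8 and 50.5 against 24.2 and 25.9. The conditions did not overlap in either gene. The 37 aminoacyl-tRNA synthetase genes, which charge tRNAs, held 10 lower (27.03%, near the 21.6% of all genes) and none higher (median -0.41), with *Kars* at 119 and 129 against 54.0 and 49.9 and *Farsb* at 152 and 168 against 74.1 and 69.1. Of 62 translation factor genes 19 were lower and none higher. *Eif4a2*, an RNA helicase of initiation, had 94.7 and 134 against 39.5 and 39.3, and *Eef1akmt3*, a methyltransferase of an elongation factor, 186 and 212 against 86.2 and 94.0. Subtracting the GC trend left 17 of the mitochondrial ribosomal protein genes, 7 of the aminoacyl-tRNA synthetase genes and 11 of the translation factor genes lower and 1 of the latter higher.

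Of 80 respiratory chain genes, 26 were lower and none higher (median -0.37). *Atp5a1*, the alpha subunit of ATP synthase, had 138 and 149 against 43.5 and 41.3 (log2 change -1.75 ± 0.16, limma adjusted p = 7.62e-13), and *Atp5e* 149 and 198 against 84.5 and 94.0. Both fell in each hypoxic library, and the *Atp5a1* fold rank moved from 58.8 and 58.2 to 19.5 and 22.3. Of 23 mitochondrial import genes 8 were lower, with *Timm23*, the inner membrane channel, at 110 and 98.0 against 44.3 and 46.1 and *Timm44* at 85.6 and 102 against 45.1 and 42.2. Of 26 nuclear pore genes 10 were lower, with *Nup37* at 141 and 161 against 64.4 and 65.3 and *Nup160* at 154 and 176 against 78.9 and 76.8. Neither list held a higher promoter.

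Lists of cell division, transcription and protein turnover held between 17.9% and 28.3% lower promoters, where all genes held 21.6%. Of 57 DNA replication and cell cycle genes, 14 were lower (24.6%) and none higher. *Aurka*, a mitotic kinase, had 273 and 271 against 124 and 148 and *Foxm1*, a factor of mitotic genes, 156 and 152 against 78.9 and 76.8. Of 46 proteasome genes 13 were lower, *Psma7* most with 180 and 181 against 92.6 and 82.5, followed by the assembly factor gene *Psmg2* with 269 and 295 against 155 and 139. The single higher promoter of that list was *Psmc4*, with 105 and 90.1 against 153 and 170. The proteasome counts were 6 lower and 2 higher with the GC trend subtracted. Of 310 *Zfp* zinc finger genes 70 were lower (22.6%) and 3 higher, with *Zfp407* at 208 and 192 against 69.3 and 68.1, *Zfp236* at 158 and 130 against 45.9 and 60.5, *Zfp609* at 61.0 and 42.6 against 102 and 85.4 and *Zfp607b* at 196 and 232 against 364 and 375. Of 28 RNA polymerase subunit genes 5 were lower, with *Polr3g* and *Polr3a*, both of RNA polymerase III, at log2 changes of -0.84 each, and 1 was lower and 1 higher with the GC trend subtracted.

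**Figure D5:**
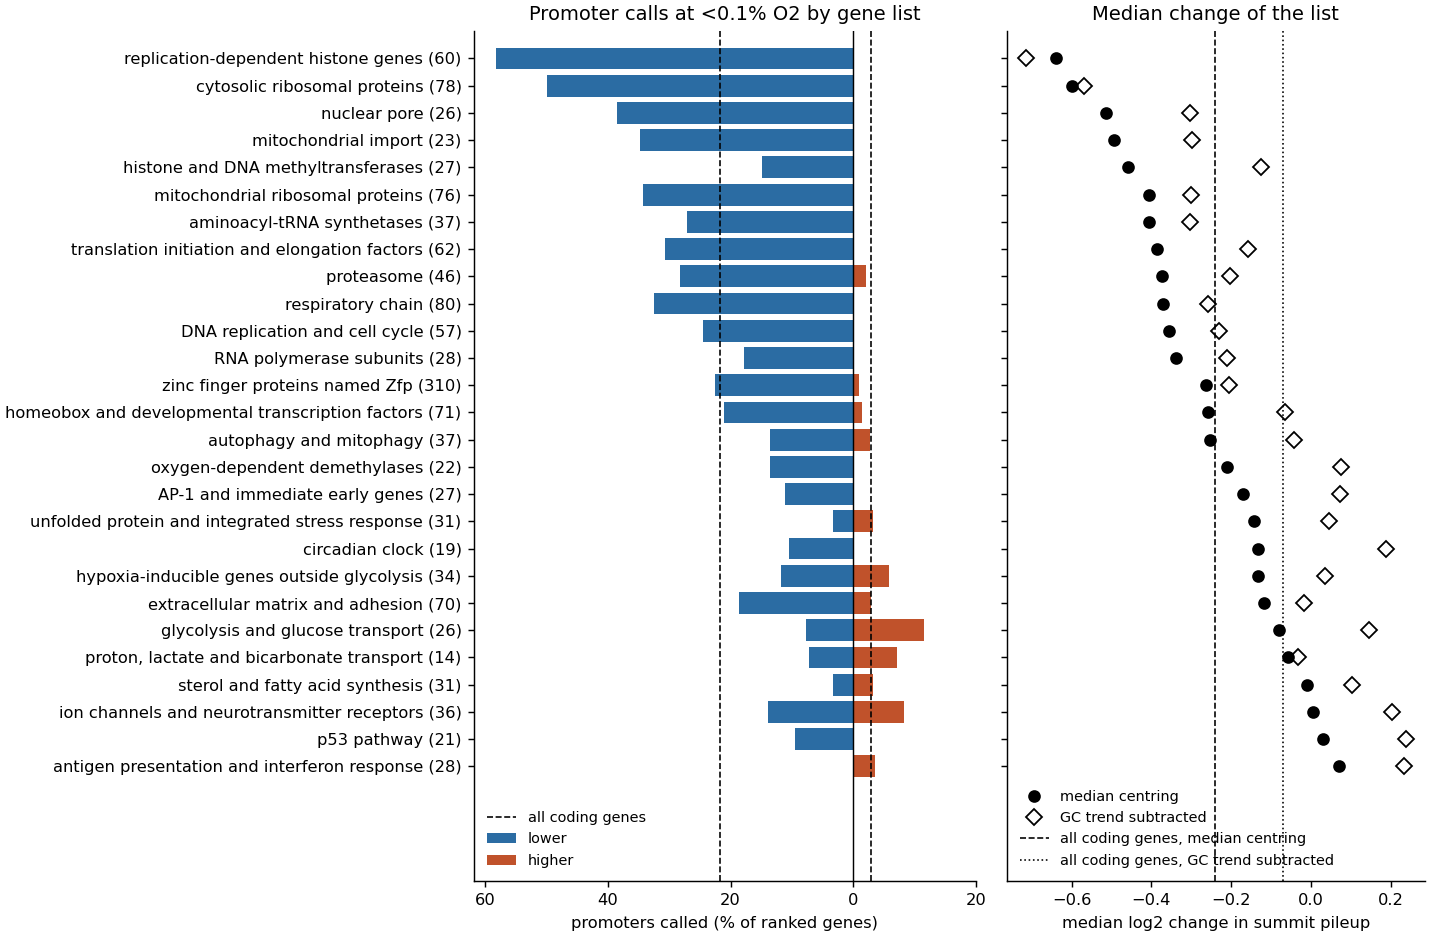
Left, percentage of genes with a promoter peak called lower (blue, to the left) or higher (orange, to the right) at <0.1% O2 in each of 27 gene lists, with the number of ranked genes in brackets and dashed lines at the shares of all 11637 coding genes (21.6% and 2.91%); right, median log2 change of each list with median centring (filled) and with the GC trend subtracted (open). Histone genes (35 of 60 lower) and ribosomal protein genes (39 of 78 lower) lie furthest below, and glycolysis is the list with the largest share called higher (3 of 26).

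Hypoxia-inducible lists held smaller shares of lower promoters than all genes, and few higher ones. Of 26 genes of glycolysis and glucose transport, 3 were higher (11.5%) and 2 lower (7.69%), where all genes held 2.91% and 21.6%. By fold rank 6 stood higher and 8 lower. *Pdk1*, the kinase that keeps pyruvate out of the mitochondria, had 169 and 193 against 341 and 346 (log2 change 0.93 ± 0.11, limma adjusted p = 8.82e-10), beside *Slc16a3* above and *Aldoc*, an aldolase named after its value was seen, at 0.66. *Gbe1*, the glycogen branching enzyme, had 291 and 296 against 138 and 146 (log2 change -1.05 ± 0.11, limma adjusted p = 7.89e-11), and *Pfkm*, muscle phosphofructokinase, had 144 and 119 against 84.5 and 84.4. The promoter of *Slc2a1*, the glucose transporter GLUT1, had 262 and 247 against 241 and 249, so that the conditions overlapped (log2 change -0.056 ± 0.11, limma adjusted p = 0.699). Its fold rank stood lower, with 86.3 and 74.9 against 54.6 and 64.5. It contained 3 hypoxia response matches.

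Of 34 other hypoxia-inducible genes, 2 were higher (5.88%) and 4 lower (11.8%), and with the GC trend subtracted 4 were higher and 1 lower. By fold rank 1 stood higher and 9 lower. *Angptl4*, a secreted inhibitor of lipoprotein lipase, had 169 and 187 against 320 and 308 (log2 change 0.82 ± 0.11, limma adjusted p = 1.88e-08), and *Zfp395* had 58.4 and 64.4 against 94.2 and 93.1. *Fam162a*, which shares its peak with *Ccdc58*, had 109 and 107 against 51.5 and 59.5, and *Bhlhe40*, a repressor induced by HIF, had 239 and 236 against 141 and 149. *Egln1* and *Plod1*, named after their values were seen, changed by -0.67 and -0.64. *Vegfa*, the angiogenic ligand, had 61.0 and 61.4 against 78.1 and 75.8; both hypoxic libraries were above both normoxic ones, but the change did not pass the test (log2 change 0.33 ± 0.17, limma adjusted p = 0.0991). Away from promoters, 58 ranked peaks within 100000 bp had a gene of this list as the nearest coding gene, and 19 were higher (32.8%) and 4 lower, where 19.6% of all such peaks were higher. For glycolysis 9 of 30 such peaks were higher and none lower. A share above 19.6% was not particular to these lists: it was 28.6% for antigen presentation (6 of 21) and 26.9% for sterol synthesis (7 of 26). Respiratory chain genes lay below it, with 4 of 33. Across the 27 lists the share ran from none of 7 peaks for histone genes to 5 of 10 for proton, lactate and bicarbonate transport. Whether the lists differed in this share was not tested. Promoter peaks of *Ddit4*, a HIF-induced inhibitor of mTOR, and *Egln3*, a prolyl hydroxylase, were among those gained at <0.1% O2, but both genes also had a promoter peak in all 4 libraries that was not called, at log2 changes of -0.13 and 0.32. The gained *Ddit4* stretch was 275 bp long and had a summit outside it in at least 1 library, so that it may be the edge of a broader peak.

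Stress and signalling lists also held fewer lower promoters, between 3.23% and 11.1%, than the 21.6% of all genes. Of 31 genes of the unfolded protein and integrated stress response 1 was higher and 1 lower. *Nupr1*, a stress-induced chromatin protein, had 63.6 and 71.3 against 168 and 187 (log2 change 1.40 ± 0.14, limma adjusted p = 9.31e-12), and *Asns*, asparagine synthetase, had 114 and 119 against 58.8 and 60.5 (log2 change -0.97 ± 0.15, limma adjusted p = 8.09e-07). Of 27 AP-1 and immediate early genes, whose products include the FOS and JUN proteins, none was higher and 3 were lower: *Nr4a2* (148 and 161 against 90.2 and 85.4), *Nr4a1* (227 and 257 against 134 and 161) and *Klf6*, named after its value was seen, at -0.61. Of 21 p53 pathway genes *Phlda3* and *Mdm2* were lower, at -0.66 and -0.63, and of 19 clock genes *Bhlhe40* and *Clock* were lower, at -0.71 and -0.68. No gene of these 3 lists was lower with the GC trend subtracted, and 1 AP-1 and immediate early gene, 1 p53 pathway gene and 2 clock genes were higher.

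Among chromatin enzymes, 3 of 22 oxygen-dependent demethylase genes were lower and none higher. *Kdm5a*, an H3K4 demethylase that is itself sensitive to oxygen, had 200 and 207 against 79.7 and 82.5 (log2 change -1.33 ± 0.13, limma adjusted p = 5.13e-12), and *Riox2* had 119 and 117 against 54.8 and 69.1, followed by *Phf8*, named after its value was seen, at -0.80. Of 27 methyltransferase genes 4 were lower and none higher. *Eed*, a core subunit of the H3K27 methyltransferase PRC2, had 157 and 163 against 72.5 and 75.8 (log2 change -1.11 ± 0.13, limma adjusted p = 2.64e-09), and *Dnmt3b*, a DNA methyltransferase, had 58.4 and 49.5 against 23.4 and 23.03. *Kmt2d* and *Setd2*, named after their values were seen, changed by -0.75 and -0.60. In each of these lists 2 genes were lower and 1 higher with the GC trend subtracted.

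Of 31 sterol and fatty acid synthesis genes, *Cyp51*, an oxygen-requiring demethylase of lanosterol, had 250 and 213 against 147 and 151, while *Fdps*, farnesyl diphosphate synthase, had 144 and 136 against 219 and 233. Of 37 autophagy and mitophagy genes 5 were lower, with *Atg12* at 136 and 110 against 56.4 and 48.9 and *Map1lc3a* at 109 and 87.1 against 54.8 and 51.8, and *Pink1*, the kinase that marks damaged mitochondria, was higher with 74.0 and 91.1 against 122 and 140. Autophagy genes split into 5 lower and 5 higher with the GC trend subtracted, while by fold rank 12 stood lower and 2 higher. Of 28 antigen presentation and interferon genes none was lower, and *H2-K1*, an MHC class I heavy chain, was higher with 42.8 and 49.5 against 70.1 and 71.0. In this list none was lower and 3 were higher with the GC trend subtracted, and by fold rank 3 stood lower and 5 higher. Of 14 proton, lactate and bicarbonate transport genes *Slc16a3* was higher and *Atp6v1a*, a subunit of the vacuolar proton pump, was lower with 125 and 104 against 52.3 and 64.3.

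Genes of cell identity and adhesion were lower at about the share of all genes. Of 70 ranked extracellular matrix and adhesion genes 13 were lower (18.6%) and 2 higher. *Cdh2*, N-cadherin, had 235 and 249 against 108 and 90.2 (log2 change -1.29 ± 0.12, limma adjusted p = 3.57e-12) and *Itgb1*, the beta 1 integrin, 284 and 248 against 153 and 121, while *Col1a2* (18.2 and 19.8 against 33.0 and 34.5) and *Lamb2* (38.9 and 33.7 against 62.8 and 58.5) were higher. Of 71 homeobox and developmental factor genes 15 were lower (21.1%), *Nkx2-2* and *Hoxd8* most at -1.18 and -1.14, and 1 was higher, *Sox8*, a factor of the glial lineage, with 61.0 and 56.4 against 118 and 113. This balance turned with the measure: 5 homeobox and developmental genes were lower and 6 higher with the GC trend subtracted, and by fold rank 10 stood lower and 17 higher. Of 36 ranked ion channel and receptor genes 5 were lower and 3 higher, with *Kcna6* and *Kcnmb4* at -1.11 and -1.03 and *Kcnab3* and *Chrnb1* at 1.13 and 1.02, and with the GC trend subtracted 3 were lower and 5 higher. Of the 218 genes of the ion channel list, 36 had a promoter peak that was ranked.

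Some single calls rested on the scaling. With the GC trend subtracted, *Pfkm*, *Bhlhe40*, *Nr4a2*, *Nr4a1*, *Cyp51*, *Clock*, *Phlda3*, *Mdm2*, *Map1lc3a*, *Psma7*, *Polr3g*, *Col1a2*, *Klf6*, *Egln1*, *Plod1*, *Phf8*, *Kmt2d*, *Setd2* and the marker genes *Gfap* and *Map2* were no longer called, and *Slc2a1*, which was not called, turned to 0.27. With coverage scaling the rises of *Aldoc*, *Zfp395*, *Fdps*, *H2-K1*, *Pink1*, *Lamb2*, *Psmc4*, *Slc17a7* and *Zfp607b* were no longer called. Some of the promoter peaks named for a list member were shared with another gene, and the change cannot be assigned to either: *Pfkm* with *Senp1*, *Aurka* with *Cstf1*, *Foxm1* with *Rhno1*, *Fdps* with *Gm43738*, *Atg12* with *Ap3s1*, *Kars* with *Terf2ip*, *Atp6v1a* with *Naa50*, *Kcnab3* with *Cntrob* and *Trappc1*, *Atp5a1* with *Haus1*, *Eef1akmt3* with *Mettl1*, *Psma7* with *Ss18l1*, *Psmg2* with *Cep76*, *Polr3g* with *Mblac2*, *Timm23* with *Parg* and *Nup37* with *Parpbp*. Beside *Slc16a3*, some named peaks did not overlap a coding start site. These were the peaks of *Angptl4* (1316 bp away), *Col1a2* (1775 bp), *Zfp609* (988 bp), *Nkx2-2* (1565 bp), *Nup160* (1310 bp) and *Hist1h2ap* (302 bp).

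More peaks were gained than lost, in hypoxic lists that were longer. Of 41308 consensus peaks, 4156 (10.1%) were found in both hypoxic libraries and neither normoxic one, and 627 (1.52%) in both normoxic libraries and neither hypoxic one. With each list cut to its 33006 strongest peaks, 2318 were gained and 2031 lost. With pileups and background scaled to the shallowest library, 3948 were gained and 735 lost. Without normoxia replicate 2 the gained peaks numbered 6559, and the lost peaks numbered 1566 without hypoxia <0.1% O2 replicate 1 and 965 without replicate 2 of that condition. A missing peak means only that the pileup did not pass the threshold of the peak caller at that depth.

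Gained and lost peaks differed in place and in letters. Promoters made up 12.8% of gained peaks (532 of 4156, 95% exact binomial interval 11.8 to 13.9) and 30.1% of lost peaks (189 of 627, interval 26.6 to 33.9), where 36.5% of all consensus peaks were promoters. Introns held 40.9% of gained and 27.6% of lost peaks. The median GC content was 47.7% in gained and 51.5% in lost peaks. AP-1 letters were in 34.5% of gained and 5.74% of lost peaks, and hypoxia response letters in 19.6% and 30.8%. Among peaks present in all 4 libraries, AP-1 letters were in 5.76% of promoter and 24.3% of other peaks. Hypoxia response letters were in 51.1% and 24.7%. How far the differing shares of promoters account for the contrast in letters was not tested. Both sets were short, with a median of 343 bp in gained and 323 bp in lost peaks, against 657 bp over all consensus peaks.

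Among the 5 gained promoter peaks with the strongest q-values, those of *Nudt3*, *Ap1s1* and *Tnfsf9* had their summits inside the consensus stretch in both hypoxic libraries. *Tnfsf9*, the ligand of the T cell costimulator 4-1BB, had a peak at chr17:57103443-57104004 with pileups of 126 and 121 fragments, *Nudt3* at chr17:27598576-27599193 had 139 and 117, and *Ap1s1* at chr5:137046891-137047348 had 134 and 127. The replicates lay close together in all 3. The other two, *Ddit4* and *Tmem160*, and all 5 strongest lost promoter peaks, of *Trio*, *Zc3h4*, *Ctdsp2*, *Ncam1* and the pair *Ccdc96* and *Tada2b*, had a summit outside the stretch in at least 1 library. Such a stretch may be the edge of a broader peak rather than a peak that appeared or vanished, and no pileup is given for it. With summits required inside, 4025 peaks were gained and 571 lost. In the lists, *Hspa5*, the endoplasmic reticulum chaperone BiP, *Myc*, *Klf10* and *Dusp1* had a gained promoter peak, and *Egr2*, *Klf4* and *Batf3* a lost one. Of these genes, *Hspa5*, *Myc*, *Klf10*, *Dusp1*, *Egr2* and *Klf4* also had a promoter peak present in all 4 libraries.

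Width tended to follow height, both outside promoters and at promoters. By percentile rank of the covered width, 3307 peaks (11.4%) were wider and 3156 (10.9%) narrower in both hypoxic libraries than in both normoxic ones by a mean of at least 10 points. Of the 2099 wider peaks outside promoters, 956 were also higher in pileup and 25 lower, and of the 1627 narrower ones 264 were lower and 80 higher. At promoters, 560 of 1529 narrower peaks were lower and 13 higher, and 199 of 1208 wider peaks were higher and 107 lower. Of all promoter peaks 19.4% were lower and 4.54% higher, and of all other peaks 5.37% and 19.3%. The median width rank of lower promoter peaks fell by 3.03 points and that of higher ones rose by 6.13 points. *Gcn1l1*, the largest fall in height, narrowed from 978 and 962 bp to 398 and 499 bp. Other promoters changed in width without a called change in height, of which 2 were named after their values were seen. The covered width at *Nnmt*, nicotinamide N-methyltransferase, was 1127 and 1430 bp at 21% O2 and 278 and 282 bp at <0.1% O2, and at *Efna3*, which encodes the ligand ephrin A3, it was 458 and 316 bp against 1214 and 1298 bp.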

How the data were processed

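ATAC-seq was compared between 2 libraries at <0.1% O2 and 2 at 21% O2, grouped by the sample labels, which give no batch. Per the study's methods, the authors trimmed reads with Trimmomatic, aligned them to mm10 (GRCm38) with Bowtie2 2.2.5, filtered duplicates (Picard) and low-quality alignments, and ran MACS2 2.1.1.2 on every library by itself, without pooling, leaving out the blacklist. The deposited peak lists give the summit's fold enrichment over local background as a ratio, −log10 p and −log10 q values, and the summit position. Read counts per peak were not used here. The whole-number summit pileup and its background were recovered from the deposited fold and −log10 p (tolerance 0.01 in −log10 p).

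Consensus peaks were stretches of over 200 bp shared by both replicates of a condition, merged over the 3 conditions. Promoters lay within 2000 bp of a GENCODE start site. Log2 pileups, median centred, were tested with limma 3.58.1 in R 4.3.3, with trend, across all peaks of the 4 libraries, and p-values were adjusted by Benjamini-Hochberg. The test borrows its spread from all peaks, since each condition has 2 libraries. Ranks and presence had no test. Motifs were searched within 100 bp of the summit, and intervals are exact binomial (Clopper-Pearson). The fit and the recovery were tested on simulated data. Named genes were the 5 largest falls and rises in promoters and elsewhere that also moved in fold rank, the 5 strongest gained and lost promoter peaks, up to 2 called members of each list per direction, and *Vegfa* and *Slc2a1*. The members, lists and motifs were chosen with earlier results of these data known. Same-numbered samples did not deviate together. Alternatives covered normalisation, GC content, the measure, filters, thresholds, windows, the block and left-out replicates. The 2 libraries at 1% O2 were not compared here.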

Additional observations from a re-analysis of the deposited data

How the results depend on the processing

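The direction of the promoter and distal split held under each alternative run, but its size did not. Promoter peaks lower and higher, other peaks lower and higher, and the difference between both classes were 1579, 927, 1333, 2249 and -0.1083 with the GC trend subtracted, 346, 117, 232, 580 and -0.0969 with fold enrichment in place of pileup, and 1261, 326, 210, 1085 and -0.3141 among peaks above the median pileup, where fewer peaks were tested. With coverage scaling promoter peaks higher were 307 and other peaks lower and higher 1476 and 1820. With no minimum change the 4 counts were 4829, 1690, 1823 and 4854, and a promoter window of 500 bp gave 349 promoter peaks higher. By fold rank, 2264 promoter peaks were lower when ranked within the whole list, and 1607 were lower and 502 higher at 20 points. At equal list length 2318 peaks were gained and 2031 lost. Of the single peaks, *Slc2a1* reversed, to 0.2734 with the GC trend subtracted. The cause of these shifts was not tested.

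Leaving out 1 library at a time gave 2437 to 2758 promoter peaks lower and 535 to 665 higher, 720 to 933 other peaks lower and 2663 to 3293 higher, a difference of -0.3893 to -0.3228, fold rank counts of 3701 to 3979 lower and 1658 to 2011 higher, 3305 to 3956 peaks narrower, 3455 to 4273 wider, 4439 to 6559 gained and 719 to 1566 lost. The lone library of a condition was then assumed to vary like the others. Without normoxia replicate 1 the calls of *Pfkm* (-0.4956), *Zfp395* (0.5372), *Cyp51* (-0.5226), *H2-K1* (0.5068), *Clock* (-0.5317), *Mdm2* (-0.5381) and *Pink1* (0.5197) were lost, without normoxia replicate 2 that of *Phlda3* (-0.5896), without hypoxia <0.1% O2 replicate 1 those of *Nr4a1* (-0.5837) and *Col1a2* (0.866), and without replicate 2 of that condition those of *H2-K1* (0.6044), *Clock* (-0.5976), *Phlda3* (-0.5604), *Pink1* (0.5753) and *Col1a2* (0.7985).

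The replicate numbers are shared between conditions but nothing ties same-numbered libraries together, and the correlation of their deviations was -0.016. With the replicate number as a block, promoter peaks lower and higher were 2530 and 594, other peaks 847 and 3069, fold rank counts 3549 and 1620, and peaks narrower and wider 3277 and 3422. The block kept 7034 of 7047 calls and each named call. Requiring summits inside the consensus peak was chosen after seeing the data. At 2 libraries a condition and a median standard error of 0.16 on the log2 scale, changes near 0.6 are read less firmly than larger ones, most of all at low pileups.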

Other observations

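Other gene families, grouped by the stem of their symbols and picked after their values were seen, also differed in the share of lower promoters. Of 22 *Taf* genes, mostly subunits of TFIID, 11 were lower and none higher (median log2 change -0.60), and of 22 *Gtf* genes of the general transcription factors 10 were lower and 1 higher (median -0.55). These medians were -0.29 and -0.55 with the GC trend subtracted. Of 20 *Mettl* methyltransferase genes 9 were lower, and of 34 *Ddx* RNA helicase genes 11, with none higher in either. Among 55 *Rab* genes of vesicle transport 7 were lower and 3 higher (median -0.099), and among 22 *Arhgap* genes 2 were lower and 1 higher (median -0.050). With the GC trend subtracted the medians of these last families turned to 0.12 and 0.19.

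Several genes had neighbouring distal peaks that moved together, again picked after their values were seen from 6845 genes with at least 1 ranked peak outside promoters within 100000 bp. Of all 13095 such peaks 19.6% were higher and 5.32% lower, and 11 of the 6845 genes had 4 or more higher and 4 had 4 or more lower. Of 11 such peaks nearest *Utrn*, the gene of the dystrophin relative utrophin, 7 were higher and 1 lower. Of 6 nearest *Ccn2*, a matricellular protein gene, 4 were higher and none lower, while of 8 nearest its relative *Ccn1* 4 were lower and none higher. All 5 peaks nearest *Bcor* and 5 of 7 nearest *Bcl11b*, both genes of transcriptional repressors, were lower. Promoter and distal peaks went opposite ways at *Pdgfa*, a growth factor gene, whose promoter changed by -1.25 while 4 of 9 distal peaks were higher, and at *Bhlhe40*, whose promoter changed by -0.71 while 3 of 6 were higher. At *Hmox1*, heme oxygenase 1, all 3 distal peaks were lower.

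Among chromosomes other than Y, which held 1 ranked promoter peak, the median promoter change ran from -0.36 on chromosome 13 and -0.35 on chromosome 18 to -0.026 on chromosome 19 and 0.0076 on chromosome 11. Outside promoters the median was 0.29 on chromosome 11 and 0.00998 on chromosome X. Summits at promoters lay a median of 32 and 26 bp apart between replicates and 34 to 42 bp apart between conditions.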
